A study of Homo sapiens with 6 samples.

Results

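In PANC-1 cells, an established human pancreatic ductal carcinoma line, 7 genes of the ATF4 amino acid stress response were described after depletion of STYK1, a receptor-like kinase of the plasma membrane. The control group held 3 libraries and the shSTYK1 group 3 libraries, sequenced from poly(A)-selected RNA. The shRNA was delivered with the lentiviral vector pLKO.1-puro, and stable lines were grown from drug-selected clones, so an effect of STYK1 loss and a difference between selected clones cannot be told apart. The sources used here state neither which shRNA the sequenced cells carried nor what vector the control cells carried, and the methods call the 3 libraries of a group biological replicates without saying whether they came from separate transductions. The 7 genes were found by looking up 32 symbols of known ATF4 targets among the 995 genes of the deposited table. That table holds genes selected on the same comparison of shSTYK1 with control cells, and in 932 of its 995 genes (93.7%) the groups did not overlap. Presence in it was therefore decided by the difference that is described here, and the differences are given as a description. Calls from a fit across the table are printed beside their share among all genes tested and are not evidence for the 7 genes.

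ATF4 is the transcription factor of the integrated stress response. When amino acids run short or unfolded proteins accumulate, stress kinases phosphorylate the translation factor eIF2, most protein synthesis slows, and the mRNA of ATF4 is translated better. ATF4 pairs with C/EBP proteins on C/EBP-ATF response elements and switches on genes for amino acid synthesis and uptake, tRNA charging, redox defence and, through CHOP, cell death. Neither STYK1 nor ATF4 had a row in the table, so neither the knockdown nor the mRNA of ATF4 could be checked in these libraries.

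By function, 2 of the 7 transcription factors of the list were found, DDIT3 and NUPR1. Of the 4 feedback and signalling genes, TRIB3 was found. CTH was found among 8 genes of amino acid synthesis and ALDH1L2 among 3 of mitochondrial one-carbon metabolism. Of the 3 secreted factors, GDF15 and STC2 were found. None of the 4 amino acid transporters of the list (SLC7A5, SLC3A2, SLC6A9 and SLC1A4) was present. Also without a row were the glutathione-degrading enzyme CHAC1, the lipoprotein receptor VLDLR and the tRNA exporter XPOT. The remaining symbols without a row were ASNS, PSAT1, PSPH, PHGDH, GPT2, CBS, PCK2, SHMT2, MTHFD2, ATF3, ATF5, CEBPB, CEBPG, JDP2, PPP1R15A, DDIT4, SESN2 and FGF21. The expression of these 25 genes was not analysed here.

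RefSeq promoters (GRCh38.p14, 250 bases before to 50 bases after a start site) were matched for 5 of the 7 genes found and for 22 of the 25 genes without a row. They were searched on both strands for the core of the C/EBP-ATF response element, TGATGNAA, which 3.62% of all 35116 promoters hold. No promoter of CTH, DDIT3, TRIB3, GDF15 or STC2 held these letters in this window. They were found in 8 of the 22 matched genes without a row (ASNS, ATF3, CEBPG, CHAC1, FGF21, JDP2, SLC1A4 and SLC3A2). In CTH the core of the cAMP response element, TGACGT (7.98% of all promoters), was found, and in DDIT3 the AP-1 letters TGACTCA (4.95%). A match describes letters only and says nothing of binding, and a window without a match says nothing about ATF4. The sequences below run 5′ to 3′ on the strand of the gene and show the members' own matches beside 3 elements of the classical type, with the matched letters in capitals.
CTH, chr1:70411109-70411138, plus strand, TGACGT from 147 bases before the start: gggcggtcgcggTGACGTttcaggcaacgc
DDIT3, chr12:57520737-57520767, minus strand, TGACTCA from 238 bases before the start of its second RefSeq promoter: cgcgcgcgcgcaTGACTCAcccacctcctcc
ASNS, chr7:97872457-97872488, minus strand, TGATGNAA from 68 bases before the start: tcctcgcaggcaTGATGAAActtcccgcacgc
CHAC1, chr15:40953250-40953281, plus strand, reverse complement of TGATGNAA from 209 bases before the start: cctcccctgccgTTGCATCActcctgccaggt
CEBPG, chr19:33374059-33374090, plus strand, TGATGNAA from 42 bases before the start of its second RefSeq promoter: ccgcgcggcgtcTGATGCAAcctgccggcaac

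Each of the 7 genes had a higher mean after STYK1 depletion, except STC2 after quantile normalization (-0.04 on the log2 scale), and in none did the libraries of the groups overlap as recovered. The ratio of the group means ran from 1.79 for STC2 to 4.62 for NUPR1, while the median ratio of the 402 tested genes that were higher was 2.28. Expression values were recovered from the deposited z-scores. Their unit is not stated, so levels are compared within a gene and not between genes. With limma on log2(value + 1) over 740 genes of the table, 7 of 7 were called higher (Benjamini-Hochberg adjusted p-value under 0.05), among them ALDH1L2, which entered the fit only through its shSTYK1 libraries. This stands beside 51.2% of all genes tested that were called higher and 44.5% called lower. The groups did not overlap, with shSTYK1 above control, in 50.4% of all genes tested, and with shSTYK1 below control in 44.1%. These shares reflect how the table was made, and nothing is read from the count of 7. The median log2 fold change of the 7 genes was 1.04, and that of all genes tested, higher and lower together, was 0.54. Both depended on the filter: without one, the medians were 1.04 for the 7 genes and -0.10 for 994 genes, and with at least 5 in 3 libraries they were 1.24 for 6 of the 7 and 0.89 for 327 genes. In bulk RNA, a change in the number of cells that express a gene and a change in RNA per cell cannot be told apart.

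Of the transcription factors, NUPR1 (ENSG00000176046), a small stress-induced chromatin protein, had the largest difference of the 7. Its values were 18.45, 18.66 and 16.44 (control) against 80.22, 85.15 and 81.99 (shSTYK1). The lowest shSTYK1 library was 4.30 times the highest control library, and each group was tight. The means were 17.8 ± 1.23 and 82.5 ± 2.50 (SD, n = 3), which is 2.15 on the log2 scale (standard error 0.12). NUPR1 ranked 6 from the top of the 740 genes tested when ordered from the largest rise, and 402 of these genes were higher in shSTYK1 cells. It lies on chromosome 16, from 28532708 to 28539174 on the minus strand (GRCh38).

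DDIT3 (ENSG00000175197) encodes CHOP, the factor that ATF4 induces and that carries the response towards cell death. Its values were 41.66, 36.60 and 35.48 (control) against 73.82, 73.64 and 74.25 (shSTYK1). The shSTYK1 libraries were almost level with each other, with a coefficient of variation of 0.424%, while control library 1 stood above the other two. From 37.9 ± 3.29 to 73.9 ± 0.313 (SD, n = 3), the log2 fold change was 0.95 (standard error 0.12). DDIT3 lies on chromosome 12, from 57516588 to 57521737 on the minus strand. GENCODE places MARS, a methionyl-tRNA synthetase gene, MBD6 and a further protein-coding gene, AC022506.1, across parts of this interval. AC022506.1 is on the same strand, so its reads may be shared. MARS and MBD6 are on the other strand, and without a stated strand setting their reads may be shared as well. The authors' handling of such reads is not given in the sources used here.

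TRIB3 (ENSG00000101255) encodes a pseudokinase that ATF4 and CHOP induce and that restrains ATF4 in turn. It was at 16.46, 23.07 and 14.62 (control) against 46.08, 57.19 and 50.02 (shSTYK1). Library 2 was the highest of its group on both sides, and even so the lowest shSTYK1 value was 2.00 times the highest control value. The means were 18.1 ± 4.44 and 51.1 ± 5.63 (SD, n = 3), which is 1.47 on the log2 scale (standard error 0.18). The gene lies on chromosome 20, from 362835 to 397559 on the plus strand.

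The metabolic genes were CTH and ALDH1L2. CTH (ENSG00000116761) encodes cystathionine gamma-lyase, which releases cysteine in the last step of transsulfuration. It was at 2.31, 2.70 and 3.42 (control) against 6.30, 6.67 and 7.42 (shSTYK1), with means of 2.81 ± 0.563 and 6.80 ± 0.571 (SD, n = 3). Its log2 fold change was 1.04 (standard error 0.15), and the ratio of the means was 2.42. In CTH, unlike TRIB3, library 3 was the highest of both groups. ALDH1L2 (ENSG00000136010), the mitochondrial formyltetrahydrofolate dehydrogenase, makes NADPH from one-carbon units. Its values were 1.12, 0.77 and 0.94 (control) against 1.95, 1.83 and 1.91 (shSTYK1). Only 1 control library reached the minimum of 1 that the filter asked of 3 libraries, so ALDH1L2 was tested because of its shSTYK1 values. From 0.943 ± 0.175 to 1.90 ± 0.0611 (SD, n = 3), its log2 fold change was 0.58 (standard error 0.12), which the added 1 understates since the ratio of the means was 2.01. CTH lies on chromosome 1, from 70411218 to 70439851 on the plus strand. ALDH1L2 lies on chromosome 12, from 105019784 to 105084577 on the minus strand, where C12orf45 overlaps it on the other strand. Without a stated strand setting, reads of C12orf45 and ALDH1L2 may be shared.

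Both secreted factors were higher as recovered, and both lost their call with quantile normalization, where STC2 was at -0.04. GDF15 (ENSG00000130513), a stress cytokine of the TGF-beta superfamily that signals to the hindbrain, was at 102.58, 122.68 and 82.83 (control) against 251.92, 330.71 and 251.19 (shSTYK1). The single high shSTYK1 library was again number 2. The means were 103 ± 19.9 and 278 ± 45.7 (SD, n = 3), which is 1.43 on the log2 scale (standard error 0.18). STC2 (ENSG00000113739), a secreted glycoprotein hormone of calcium and phosphate balance, was at 163.65, 195.21 and 162.58 (control) against 312.16, 332.93 and 286.90 (shSTYK1). Its highest control and lowest shSTYK1 libraries were the closest of the 7 genes, 1.47 times apart. With means of 174 ± 18.5 and 311 ± 23.1 (SD, n = 3), it had a log2 fold change of 0.84 (standard error 0.13). GDF15 lies on chromosome 19, from 18374731 to 18389176 on the plus strand, and hosts the microRNA gene MIR3189. STC2 lies on chromosome 5, from 173314713 to 173329503 on the minus strand.

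The size of these differences depended on how the libraries were scaled. Rescaling by the median of ratios within the table gave size factors of 0.859, 1.03 and 0.856 for the control and 1.23, 1.18 and 1.22 for the shSTYK1 libraries, and it lowered the median log2 fold change of all genes tested from 0.54 to 0.30. After this rescaling all 7 genes stayed higher, with log2 fold changes of 1.75 for NUPR1, 1.08 for TRIB3, 1.03 for GDF15, 0.71 for CTH, 0.55 for DDIT3, 0.43 for STC2 and 0.34 for ALDH1L2. ALDH1L2 and STC2 were then nearest to the median of all genes. With quantile normalization 5 of the 7 kept their call, beside 376 of all 740 genes tested called higher and 324 called lower. GDF15 then had a log2 fold change of 0.50 and STC2 of -0.04, neither past the threshold in limma. Both scalings were computed from selected genes, and the size factors of the whole libraries were not analysed here.

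**Figure D1:**
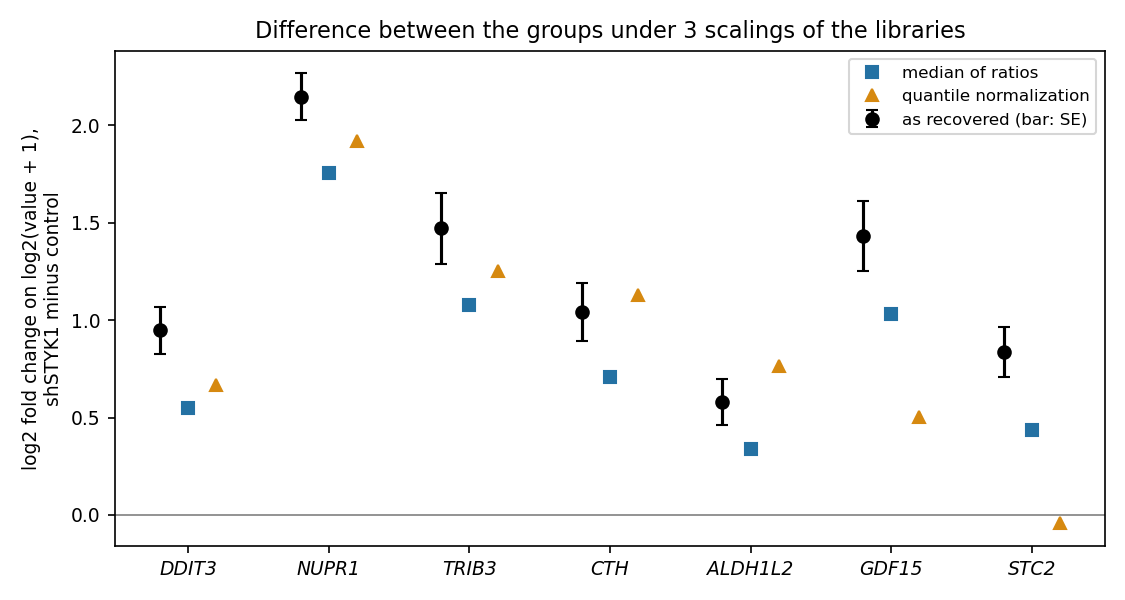
Log2 fold change (shSTYK1 minus control, on log2(value + 1)) of each of the 7 genes with the libraries as recovered (circles, bars for the standard error), after rescaling by the median of ratios (squares) and after quantile normalization (triangles). NUPR1 stays at 1.75 or more under all 3, while STC2 goes from 0.84 to 0.43 and -0.04.

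Within the groups the 7 genes did not move as one. Deviations of each library from its group mean on log2(value + 1) hold no difference between the groups, and they were compared over the 6 libraries as a description. TRIB3, GDF15 and STC2 deviated together, with Pearson's r from 0.85 to 0.92, and NUPR1 went with these 3 at r from 0.58 to 0.90. All 4 were highest in control library 2 and in shSTYK1 library 2. TRIB3 was 0.36 above its control mean in library 2 and 0.26 below it in library 3. DDIT3 and ALDH1L2 were instead highest in control library 1 and correlated with each other at r = 0.74, and ALDH1L2 ran against TRIB3 (r = -0.73) and STC2 (r = -0.75). CTH was negatively correlated with all 6 other genes, at r from -0.78 to -0.26. Control library 2 was also the highest control library in 49.9% of the 733 other genes tested and had the largest control size factor, and the part of this in the shared deviations was not tested. In shSTYK1 library 2 the corresponding share of other genes was 35.3%, with 4 of the 7 genes highest there.

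The wider ATF4 network was followed through lists of related genes. Of 21 other genes linked to ATF4, CHOP or neighbouring stress pathways, 9 were in the table and 8 passed the filter on low values. All 8 were called higher in limma as recovered, beside 51.2% of all genes tested. With either scaling 7 of the 8 were called higher (quantile normalization left SQSTM1 at -0.00 on the log2 scale). Of all 740 genes tested, the median of ratios gave 326 called higher and 333 lower. Quantile normalization gave 376 called higher and 324 lower. HKDC1, LAMP3 and ULBP1 reached the minimum of 1 in fewer than 3 control libraries and passed the filter through their shSTYK1 values. Over the 8 genes the median log2 fold change was 0.97. Outside the filter, INHBE, an activin subunit gene of the DDIT3 region, was at 0.22, 0.25 and 0.04 (control) against 0.27, 0.87 and 0.51 (shSTYK1). The table was selected on this comparison, so these counts too are descriptions.

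LAMP3, a lysosomal membrane protein of stressed and hypoxic cells, had a log2 fold change of 1.44 (standard error 0.16), with control values of 0.92, 1.51 and 1.25 and shSTYK1 values of 6.13, 4.38 and 4.62. TXNIP, the thioredoxin inhibitor that curbs glucose uptake, went from 1.27 ± 0.114 to 4.36 ± 0.0900 (SD, n = 3). ULBP1, a ligand of the natural killer cell receptor NKG2D, went from 1.22 ± 0.296 to 3.31 ± 0.690. These genes had low control values, each under 2 in every control library. ADM2, a peptide hormone of the adrenomedullin family, was at 1.33 ± 0.278 and 2.70 ± 0.405. HKDC1, a hexokinase-like enzyme, was at 0.22, 0.33 and 0.21 (control) against 1.59, 1.06 and 1.34 (shSTYK1). Its ratio of means, 5.25, was the highest of this list, followed by 4.11 for LAMP3, while the added 1 held its log2 fold change to 0.89. KLHL24, a ubiquitin ligase adaptor, was at 7.01 ± 2.53 and 11.6 ± 0.907, and its highest control library (9.92) came close to its lowest shSTYK1 library (10.59). The median-of-ratios scaling took KLHL24 to 0.34 on the log2 scale, no longer past the threshold in limma.

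The list also holds antioxidant genes shared with the NRF2 pathway. HMOX1, heme oxygenase, was at 27.8 ± 4.13 in control and 55.4 ± 2.41 in shSTYK1 cells (SD, n = 3). SQSTM1, the autophagy receptor p62, had a log2 fold change of 1.02, which quantile normalization brought to -0.00. HMOX1, SQSTM1, ADM2, KLHL24 and INHBE were highest in library 2 of both groups, as TRIB3, GDF15, STC2 and NUPR1 were. So were SLC43A2 and COL1A1, which were lower in shSTYK1 cells.

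Amino acid transporters and enzymes outside the list of 32 were few in the table. Of 34 other transporters, 4 were present, and of the 2 tested, 1 was called higher and 1 lower, beside 51.2% and 44.5% of all genes tested. SLC7A11, which imports cystine in exchange for glutamate, was at 5.80, 4.76 and 6.91 (control) against 19.92, 15.05 and 21.13 (shSTYK1), a log2 fold change of 1.53 (standard error 0.18). The groups were far apart, and library 2 was the lowest of each, the reverse of TRIB3. SLC43A2, a carrier of large neutral amino acids, was lower, from 8.46 ± 1.99 to 3.33 ± 1.03 (SD, n = 3). SLC6A15, a neutral amino acid carrier, was below the filter, with values of 0.68, 0.69 and 1.00 in control libraries and a listed 0 in 2 of the 3 shSTYK1 libraries. SLC7A2, a carrier of cationic amino acids, was at 0.19 or less in every library.

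Of 43 other enzymes of amino acid, folate and glutathione metabolism, 3 were in the table. BCAT1, the cytosolic branched-chain aminotransferase, was at 4.15, 2.92 and 4.36 (control) against 0.24, 0.09 and 0.19 (shSTYK1), a log2 fold change of -2.02 (standard error 0.15). Its mean was 22.0-fold lower, and with a pseudocount of 0.1 the log2 fold change was -3.86. BCAT1 passed the filter through its control libraries alone. ASS1, argininosuccinate synthetase of the arginine pathway, was higher, from 3.20 ± 1.45 to 8.71 ± 1.53. GLUL, glutamine synthetase, was below the filter and was at 2.21, 0.62 and 1.30 in control against 0.36, 0.20 and 0.09 in shSTYK1 libraries. ASS1 and GLUL each have several pseudogenes, with which reads may be shared. Antisense transcripts overlap SLC7A11, BCAT1 and HKDC1, and without a stated strand setting their reads cannot be told apart.

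Further lists of stress genes were looked up in the table, where presence depends on how its genes were selected. None of 20 cytosolic aminoacyl-tRNA synthetases, which charge tRNAs and are classical ATF4 targets, was in the table, nor any of 9 mitochondrial chaperones and proteases. Of 20 core genes of the integrated stress response, EIF2S3, the gamma subunit of eIF2, was present. It was at 127.77, 119.02 and 134.74 (control) against 255.35, 220.58 and 255.61 (shSTYK1), and its log2 fold change of 0.93 became -0.06 with quantile normalization. Of 26 genes of the ATF6 and XBP1 arms, HERPUD1, which serves degradation of misfolded proteins at the endoplasmic reticulum and responds to ATF4 as well, was present. Its values were 20.08, 20.87 and 20.95 (control) against 39.31, 38.74 and 37.60 (shSTYK1). Both groups of HERPUD1 were tight and far apart, and the chaperones HSPA5, HSP90B1 and CALR had no row. HERPUD1 and BCAT1, which went opposite ways, both hold the ATF4 letters, which are in capitals in the lines below.
HERPUD1, chr16:56931954-56931985, plus strand, reverse complement of TGATGNAA from 176 bases before the start: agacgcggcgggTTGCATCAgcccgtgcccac
BCAT1, chr12:24949130-24949161, minus strand, TGATGNAA from 48 bases before the start: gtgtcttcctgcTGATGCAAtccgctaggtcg

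**Figure D2:**
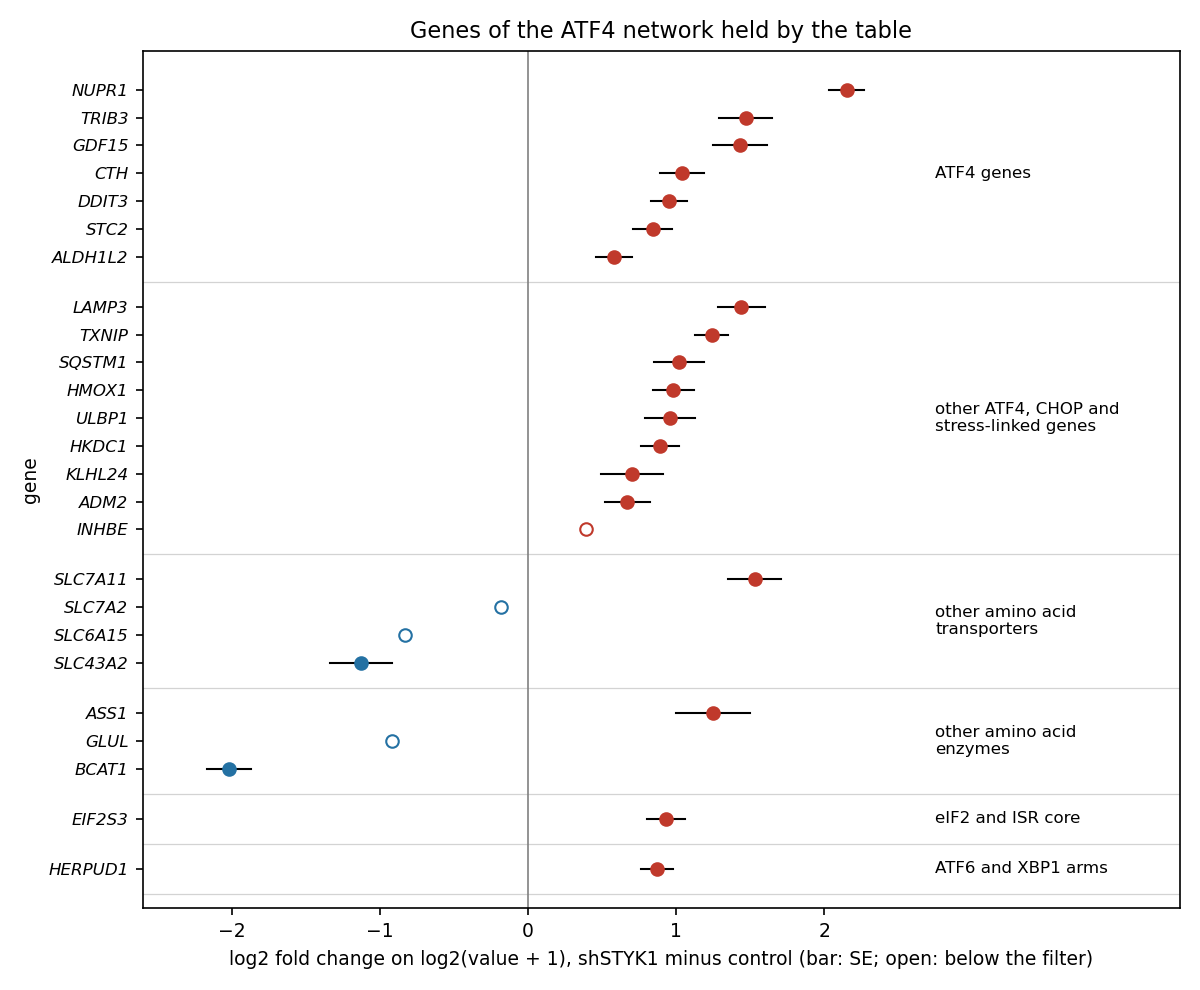
Log2 fold change (horizontal axis, shSTYK1 minus control, on log2(value + 1)) of the genes of 6 lists that the table holds, red higher and blue lower, with bars for the standard error and open circles for genes below the filter. As recovered, the 7 ATF4 genes lie between 0.58 and 2.15 (with quantile normalization STC2 is at -0.04, EIF2S3 at -0.06 and SQSTM1 at -0.00), and the lower genes are the transporters SLC43A2, SLC6A15 and SLC7A2 and the enzymes BCAT1 and GLUL.

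The direction of the table genes nearest to these genes varied. Of 964 genes located on GENCODE 29 (GRCh38), 49.7% were higher in shSTYK1 cells. On chromosome 3, which carries KLHL24 and LAMP3, 66 of 88 were higher, and so were 9 of the 10 table genes nearest to each of them. EIF2S3 on chromosome X also had 9 of 10 nearest table genes higher. On chromosome 16, which carries NUPR1 and HERPUD1, 29 of 39 were higher, and for HERPUD1 and for HMOX1 on chromosome 22 the nearest table genes were higher in 8 of 10. The lowest numbers around a gene that was higher were 1 of 10 for ULBP1 on chromosome 6 and 3 of 10 for SLC7A11 on chromosome 4 and for GDF15. For the 7 ATF4 genes the number was between 3 of 10 (GDF15) and 7 of 10 (NUPR1 and TRIB3). The farthest of the 10 nearest table genes lay at unlike distances, among the 7 from 2.68 Mb away for GDF15 to 44.3 Mb for TRIB3. The part of the neighbourhood in the values of these genes was not tested.

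The genes outside all lists whose profile was most like the mean z-score of the 7 genes, over the 6 libraries, were MAP3K15, ENSG00000290762, CRABP2, LAMA4 and TK2. Their Pearson's r ran from 0.9965 for TK2 to 0.9993 for MAP3K15. They are the 5 highest of 717 genes compared. High values of r were common with 6 libraries in 2 groups, with a median of 0.947 over 382 other higher genes and 72.5% of these over 0.9. CRABP2, a retinoic acid carrier, was at 264.41, 260.37 and 233.52 (control) against 499.68, 521.16 and 489.73 (shSTYK1). LAMA4, a laminin chain, had the largest log2 fold change of these, 1.85.

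Markers of the line and of other cells were too sparse in the table to check identity. Of 11 ductal epithelial markers CDH1 alone was present, at 0.897 ± 0.0451 in shSTYK1 against 0.217 ± 0.101 in control cells (SD, n = 3). The labelled ductal carcinoma type could therefore not be checked. Of 10 fibroblast markers COL1A1 was present and went from 30.4 ± 10.5 to 3.26 ± 0.414. The endothelial receptor KDR, 1 of 6 markers, was at 0.54 or less in control and listed at 0 in all 3 shSTYK1 libraries. The myeloid integrin ITGAM, 1 of 8 immune markers, went from 0.310 ± 0.0985 to 1.36 ± 0.276. No acinar marker (of 7) and none of 13 mitochondrially encoded mRNAs, a sign of RNA quality, had a row. The part of these genes in the ATF4 values was not tested.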

How the data were processed

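RNA enriched with oligo(dT) beads from 3 control and 3 shSTYK1 libraries was read in pairs of 150 bases. The values deposited by the authors are a z-score per gene and library for 995 genes, made by centring and scaling each gene over the 6 libraries. The submitters' processing notes name RSEM, DESeq2 and GRCh38 (hg38) without their roles. Neither the unit before scaling nor the depth is given in the sources used here, and no counting interval was computed.

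Expression values were recovered for 994 genes with a whole-number search (Python 3.11.15, numba 0.67.0) over values of 2 decimals and log(value + 1), with value + 1 up to 2000. The largest gap between a deposited score and one recomputed from the recovered values was 5e-12. Whole numbers made up 4.49% of the recovered values. On simulated data the search solved 200 of 200 genes exactly. Groups were compared with limma 3.58.1 (R 4.3.3) on log2(value + 1), with Benjamini-Hochberg adjustment over 740 genes, those reaching 1 in 3 or more libraries. On simulated data of 740 genes, limma called 170 of 200 changed genes with the correct sign and 3 of 540 genes that had no change. The study's methods call the 3 libraries of a group biological replicates.

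The 32 symbols, the other lists and the tests were chosen with earlier results of these data known. Every list gene found was named, with the 5 genes outside the lists of highest correlation to the mean profile. A table of gene identifiers named 923 of the 995 genes. Positions came from GENCODE 29 and promoters from RefSeq. Alternatives were another pseudocount, 2 scalings, 2 filters, each library left out, the replicate block, trended and robust moderation, and the z-scores. Plots were drawn with matplotlib 3.10.9.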

Additional observations from a re-analysis of the deposited data

How the results depend on the processing

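All 7 genes stayed higher in shSTYK1 cells under every alternative except quantile normalization, where STC2 was at -0.0425 on the log2 scale. Because the groups of each gene did not overlap, only the 2 scalings could have turned a direction. The other alternatives could not. Their median log2 fold change was 1.04. It was 1.26 with a pseudocount of 0.1, 0.71 after rescaling by the median of ratios, 0.77 with quantile normalization and 1.24 with a filter of at least 5, which left 6 of the 7 genes. With each library left out in turn it ran from 0.98 to 1.15, and the call of all 7 was kept. In these fits 365 to 378 of all 740 genes tested were called higher and 324 to 328 lower. With 1 library left out, all 42 values of single genes moved by less than 1 SD between replicates. Leaving out 1 of 3 libraries cannot move a value further, so nothing is read from this. With another pseudocount or scaling, 7 moved by less than 1 SD, 13 by more and 1 changed sign. The table-wide counts of 379 higher and 329 lower genes became 194 and 130 with the filter of at least 5, which tests 327 genes. The excess of higher genes was lost after rescaling by the median of ratios (326 higher and 333 lower), with no filter (455 and 460) and on the z-scores (465 and 484).

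Libraries with the same replicate number did not deviate together more closely than some of unlike number. The correlations of their deviations over 740 genes were -0.22, 0.19 and 0.05 for numbers 1 to 3. For libraries of unlike number they ran from -0.25 to 0.23. The labels state no pairing. Deviations within a group of 3 sum to 0, so these few values cannot decide whether the numbers pair the samples. With the replicate number as a block, 385 genes were higher and 329 lower, and 7 of the 7 ATF4 genes were called with the same median of 1.04, which a block cannot move in a balanced design. The depth of the libraries is unknown, and the low values of ALDH1L2 and CTH cannot be given a counting error.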
